A study of Mus musculus with 2 samples.

Results

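The genes described here are the WNT ligands, their Frizzled and other cell-surface receptors, and the intracellular genes of the beta-catenin and planar cell polarity branches. They were chosen by gene symbol: every symbol of the Wnt and Frizzled families, together with a fixed list of co-receptors, receptor-removing ligases, Dishevelled genes, beta-catenin regulators, TCF and LEF factors and core polarity genes. Of 58 names so covered, 51 were measured by a probe set annotated to that symbol alone, out of 14860 genes measured in all. The remaining 7 names (Fzd9, Lgr4, Znrf3, Tcf7, Celsr2, Prickle1 and Prickle2) had no such probe set and were not analysed here.

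The study compared the anterior (thumb-side) and the posterior (little-finger-side) tissue of limb buds at E10.5, day 10.5 of mouse development, cut apart along the midline. All embryos were wild-type and of CD1, an outbred stock, and no treatment is named for either group. RNA of limb buds from 8 litters, as the labels give it, was pooled and amplified, and each tissue was hybridised to 1 Affymetrix array, so neither group has a replicate and no test of a gene is possible. The labels do not state the limb type (fore or hind), and each value is an average over all cells of the tissue, in which fewer cells of a type and less RNA per cell cannot be told apart.

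WNT proteins are secreted, lipid-modified ligands that bind Frizzled receptors. In the canonical branch, the co-receptors Lrp5 and Lrp6 and the adaptor Dishevelled then stop a complex of Axin and Apc from destroying beta-catenin, which enters the nucleus and acts through TCF and LEF proteins. In the non-canonical branches, ligands such as Wnt5a act through Ror and Ryk receptors and the Vangl, Celsr and Prickle proteins on cell polarity and movement. In the limb bud, ectodermal WNTs keep the underlying mesenchyme proliferating and undifferentiated and set up the apical ridge and the dorsal side, whereas Wnt5a in the distal mesenchyme directs outgrowth.

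The labelled tissues carried their markers, and all 10 limb mesenchyme genes examined, such as Prrx1, were detected. All 5 posterior mesenchyme genes examined (Shh, Hand2, Ptch1, Gli1 and Hoxd13) were higher in posterior tissue by 1.3-fold or more, the fold the submitters name, and 4 of 5 anterior genes (Gli3, Alx4, Asb4 and Lhx9, without Pax9) were higher in anterior tissue by that much. These lists were drawn up with earlier results of these arrays known, so they are no independent check of the labels. Values are on the log2 scale of RMA, a multi-array summary of probe brightness, and differences are posterior minus anterior, called "toward posterior" where above 0. A gene was called detected where its higher value lay above 5.06, the 95th percentile of 853 olfactory, vomeronasal, taste receptor and beta-defensin genes that served as background. In place of a replicate error, each difference is set beside its local spread, the robust standard deviation of the differences of the 500 genes nearest in level. That spread mixes array noise with true differences. Levels of different genes come from different probes and are not compared with each other.

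Of the 51 WNT genes, 40 were detected, all of them above the floor in both tissues, and 11 were not: Wnt1, Wnt2, Wnt7b, Wnt8a, Wnt8b, Wnt9b, Wnt16, Fzd8, Lgr5, Rnf43 and Celsr3. Few WNT genes passed 1.3-fold between the tissues, as was so for detected genes in general. Past 1.3-fold lay 2 of 51, Tcf7l2 and Fzd6, both higher in anterior tissue, and 0 were higher in posterior tissue by that much. Ror1 (1.29-fold) and Tcf7l1 (1.28-fold) lay just outside. Among all genes 4.8% were past 1.3-fold toward anterior and 3.77% toward posterior tissue, or 8.57% in all; among detected genes the shares were 4.68%, 1.85% and 6.53%. Among the detected WNT genes the anterior share was 5%, near that background. The median difference of the 51 genes was -0.01 (-0.02 over the 40 detected), against -0.04 over all genes and -0.07 over all detected genes. The roles did not lean the same way: detected ligands lay mostly toward posterior tissue, and detected receptors and transduction genes mostly toward anterior tissue, as the plot of levels by gene shows.

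**Figure D1:**
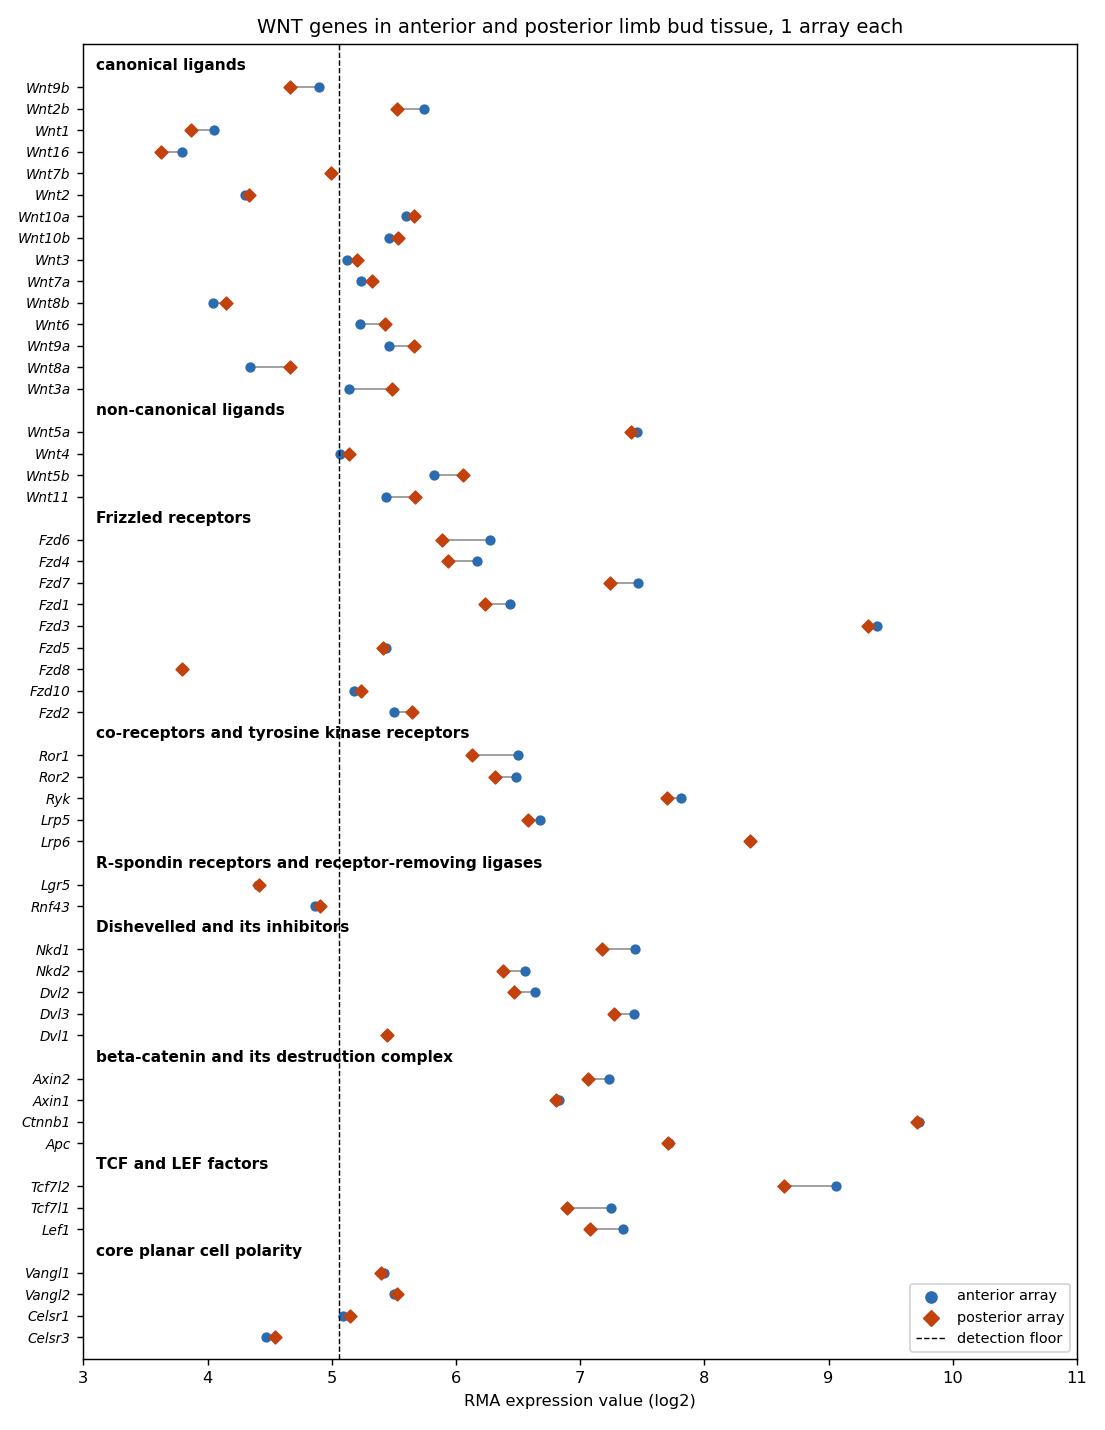
Log2 RMA value of each of the 51 WNT genes in the anterior array (blue circles) and the posterior array (orange diamonds), grouped by role, with a dashed line at the detection floor of 5.06. Tcf7l2 and Fzd6 have the widest gaps, with the anterior circle on the right, while Wnt3a, Wnt5b and Wnt11 have the posterior diamond on the right.

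Direction has to be read against a trend with level. The difference of the median gene moved from slightly above 0 at low levels to below 0 at intermediate ones. An effect of the arrays and a true difference of the tissues cannot be told apart here, with 1 array each. Of all detected genes, 66.8% lay toward anterior tissue. For that reason each difference is also given after removal of this trend by a lowess curve through all genes. After that removal 0 WNT genes passed 1.3-fold in either direction. By the same measure 572 of all 14860 genes passed toward posterior and 613 toward anterior tissue. Of the 9017 detected genes, 223 and 281 did. The plot of difference against level shows the curve and where the WNT genes lie around it.

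**Figure D2:**
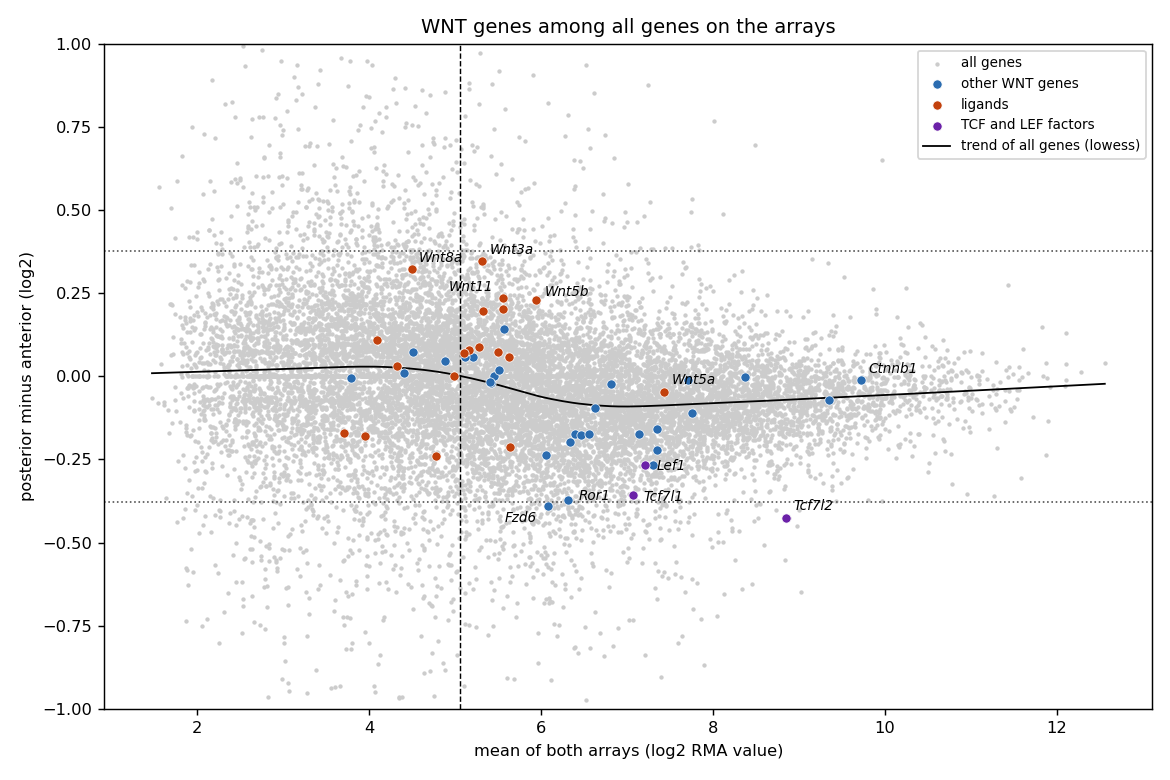
Difference between the arrays (posterior minus anterior, log2) against the mean level of each gene (log2 RMA value), with all genes in grey, ligands in orange, TCF and LEF factors in purple and the remaining WNT genes in blue. Dotted lines mark 1.3-fold, the dashed line the detection floor and the black line the trend; 67 genes differing by more than 1 lie outside the plot, and Tcf7l2 lies below the lower dotted line at a level where few genes do.

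Among the ligands, 10 of 12 detected genes had a higher posterior than anterior value, and 0 of them reached 1.3-fold. Of the 5730 detected genes in the same range of levels, 34.1% lay toward posterior tissue. The median level of those genes was 6.13, against 5.53 for the 12 ligands, so they are not of quite like level. Of the 12 ligands, only Wnt5a and Wnt5b exceeded a stricter floor of 6.01, the 99th percentile of the background genes. The count thus rests mostly on values close to the floor. After removal of the trend, 11 of the 12 ligands lay on the posterior side, all but Wnt2b. The median of the 12 was 0.09 as deposited and 0.10 after removal of the trend.

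Wnt3a had the largest posterior difference of any WNT gene. Wnt3a, a canonical ligand known from the primitive streak and tail bud, read 5.14 in anterior and 5.49 in posterior tissue. That is 1.27-fold, a log2 difference of 0.35 with a local spread of 0.19, and it ranked at 212 of 9017 detected genes counted from the posterior end. Both values lie close above the floor. Its neighbour on the same chromosome, the canonical ligand Wnt9a, read 5.46 and 5.66, a difference of 0.20 with a local spread of 0.20. For Wnt9a the gap is therefore as wide as the spread of genes of like level.

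Of the 4 non-canonical ligands, Wnt11 and Wnt5b differed by more than their local spreads and Wnt5a and Wnt4 by less. Wnt11, which acts in kidney branching, read 5.44 in anterior and 5.67 in posterior tissue, a difference of 0.24 with a local spread of 0.19. Wnt5b, a close relative of Wnt5a that acts in cartilage, read 5.82 and 6.05, a difference of 0.23 with a local spread of 0.18. Both were higher in posterior tissue, by 1.18-fold and 1.17-fold. Wnt5a, the ligand of distal outgrowth, read 7.46 in anterior and 7.41 in posterior tissue. It was level between the tissues: the difference of 0.05 toward anterior tissue is below the local spread of 0.14 and turned to 0.04 toward posterior tissue after removal of the trend. Wnt4 read 5.07 and 5.14, the anterior value at the floor.

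The ligands known from limb ectoderm showed small differences of one sign. Wnt7a, the dorsal ectodermal ligand that induces Lmx1b in the mesenchyme beneath it, read 5.23 in anterior and 5.32 in posterior tissue. Lmx1b itself read 6.50 and 6.20, the opposite direction, with a local spread of 0.17. Wnt3, which is needed in ectoderm for the apical ridge, read 5.12 and 5.20. Wnt6 read 5.23 and 5.43, Wnt10a 5.60 and 5.66, and Wnt10b 5.46 and 5.54. All of these ligands were higher in posterior tissue by at most 0.20 on the log2 scale and by less than their local spreads of 0.18 to 0.20. Limb ectoderm markers were set beside them: of 13 measured, 5 lay toward posterior and 6 toward anterior tissue, and the summed linear level of the list in posterior tissue was 102% of that in anterior tissue. Krt5, a keratin of basal epidermis, was the 1 ectoderm gene past 1.3-fold, at 1.40-fold toward posterior tissue. That is 7.69% of the list, against 8.57% of all genes in either direction. Epcam differed by 0.14 toward anterior tissue. The part of ectoderm content in the ligand values was not tested.

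Wnt2b, known from the forelimb field of the chick, was the 1 detected ligand besides Wnt5a on the anterior side. It read 5.74 in anterior and 5.53 in posterior tissue, a difference of 0.21 with a local spread of 0.18. The 7 ligands that were not detected spread from 0.24 toward anterior tissue (Wnt9b) to 0.32 toward posterior tissue (Wnt8a). None of these values lies above the detection floor, so no direction is read from them.

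Most detected Frizzled receptors lay toward anterior tissue, as most detected genes did, with Fzd6 furthest. Fzd6, which acts in polarity and hair patterning, read 6.27 in anterior and 5.89 in posterior tissue. It was 1.31-fold higher in anterior tissue, a log2 difference of 0.39 with a local spread of 0.17, just past the threshold. After removal of the trend it was 1.25-fold. Fzd4, the Norrin receptor of blood vessels, read 6.17 and 5.94. Fzd7 read 7.47 and 7.24, and Fzd1 read 6.43 and 6.24. These 3 receptors were all higher in anterior tissue as deposited, by 0.24, 0.22 and 0.20 on the log2 scale. Each of these differences exceeds its local spread of 0.18, 0.14 and 0.16. After removal of the trend 0.17, 0.13 and 0.12 remained, each below its local spread. Endothelial markers were set beside Fzd4: 7 of 10 lay toward anterior and 2 toward posterior tissue. Tek lay furthest, 0.30 toward anterior tissue, and 0 passed 1.3-fold, against 8.57% of all genes. Their summed linear level in posterior tissue was 97.4% of that in anterior tissue. The part of vessel content in the Fzd4 values was not tested.

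The remaining Frizzled genes were level or lay toward posterior tissue. Fzd3, which guides axons with the polarity genes, read 9.39 in anterior and 9.32 in posterior tissue, and its difference of 0.07 is below the local spread of 0.08. Fzd2 read 5.50 and 5.64, 0.14 toward posterior tissue. Fzd10 read 5.18 and 5.24, and Fzd5 5.43 and 5.41. Thus 6 of 8 detected Frizzled genes (75%) lay toward anterior tissue as deposited, near the 66.8% of all detected genes. Their median of 0.13 toward anterior tissue shrank to 0.06 after removal of the trend, with 5 of 8 on that side.

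The co-receptors repeated this order, with Ror1 close under the threshold. Ror1, a receptor tyrosine kinase for Wnt5a, read 6.50 in anterior and 6.13 in posterior tissue, 1.29-fold higher in anterior tissue with a local spread of 0.16. Its relative Ror2, which is needed for limb outgrowth and digit formation, read 6.49 and 6.31. For Ror2 the difference of 0.17 is about the local spread of 0.17, and 0.09 remained after removal of the trend. Ryk, another receptor of the non-canonical branch, read 7.81 and 7.70, and Lrp5 read 6.68 and 6.58. Both differences, 0.11 and 0.10, are below their local spreads. Lrp6, the main canonical co-receptor, read 8.37 in both tissues and had the smallest nonzero difference of all WNT genes. All 5 lay toward anterior tissue as deposited, except that Lrp6 crossed 0 under median-centred arrays and after removal of the trend. Of the R-spondin receptors and the ligases that remove Frizzled from the surface, Lgr5 and Rnf43 were measured and neither was detected.

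Dishevelled, the adaptor that receives the Frizzled signal, differed by less than its spread or hardly more. Dvl3 read 7.43 in anterior and 7.27 in posterior tissue, a difference of 0.16 with a local spread of 0.14. Dvl2 read 6.64 and 6.47, and Dvl1 read 5.45 in both, exactly equal. Nkd1, an inhibitor of Dishevelled that beta-catenin signalling itself induces, was higher in anterior tissue. It read 7.44 and 7.17, 1.204-fold with a local spread of 0.14. Its relative Nkd2 read 6.55 and 6.38, 0.18 toward anterior tissue and about its local spread.

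Beta-catenin, Apc and Axin1 were level between the tissues, and Axin2 was slightly higher in anterior tissue. Ctnnb1, which encodes beta-catenin, read 9.73 in anterior and 9.72 in posterior tissue, with a local spread of 0.08. Apc read 7.72 and 7.71, and Axin1 read 6.83 and 6.80. These 3 genes differed by 0.01 to 0.02 as deposited, and all 3 crossed to the posterior side after removal of the trend. Axin2, a component of the complex that is also a feedback target of the pathway in most tissues, read 7.23 and 7.06. It was 1.13-fold higher in anterior tissue, a difference of 0.17 with a local spread of 0.13, and 0.08 remained after removal of the trend.

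The TCF and LEF factors, the DNA-binding partners of beta-catenin, formed the role with the largest shift. All 3 measured genes were higher in anterior tissue, and their median difference of 0.36 compares with 0.07 toward anterior tissue over all detected genes. Tcf7l2 read 9.06 in anterior and 8.64 in posterior tissue. It was 1.34-fold higher in anterior tissue, a log2 difference of 0.42 that is 4.33 times its local spread of 0.10, and it ranked at 303 of 9017 detected genes counted from the anterior end. Tcf7l1, which acts mainly as a repressor, read 7.25 and 6.89, 1.28-fold with a local spread of 0.13. Lef1, an activator and itself a target of the pathway, read 7.35 and 7.08, 1.203-fold with a local spread of 0.13. After removal of the trend, 0.35, 0.27 and 0.18 remained, each above its local spread and each below 1.3-fold. Tcf7l2 and Tcf7l1 thus stood 1.28-fold and 1.204-fold higher in anterior tissue by that measure.

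Because these proteins bind a short element of DNA, the 250 bases before the annotated starts of the WNT genes were searched on both strands for 4 words, CTTTG followed by either AA or AT or TA or TT. Words on the same strand cannot overlap each other, but words on opposite strands can. RefSeq (GRCm38.p6, a later build than the mm9 of the arrays) gave 56 start windows for 42 of the names, 36 of them measured. A match stood in 6 of the 56 windows (10.7%), against 14.8% of 32851 windows of all genes; these were windows of Tcf7l2, Lef1, Wnt5b, Wnt11, Fzd7 and Prickle2. The windows of the 3 TCF and LEF genes that lay together toward anterior tissue, and of Wnt11, a ligand on the posterior side with a match, follow, 5′ to 3′ on the strand of the gene, with the matched letters in capitals. For Tcf7l2 (2 windows), Lef1 (4 windows) and Wnt11 (2 windows) the start with a match is shown, and their other windows hold none of the 4 words. For Tcf7l2 and Lef1 the start shown is the furthest downstream of those annotated.
Tcf7l2: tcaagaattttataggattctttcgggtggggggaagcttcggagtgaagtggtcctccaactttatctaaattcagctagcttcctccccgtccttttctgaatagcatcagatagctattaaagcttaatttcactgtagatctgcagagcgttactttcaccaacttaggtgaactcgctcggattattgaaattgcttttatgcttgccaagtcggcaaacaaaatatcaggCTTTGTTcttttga
Tcf7l1: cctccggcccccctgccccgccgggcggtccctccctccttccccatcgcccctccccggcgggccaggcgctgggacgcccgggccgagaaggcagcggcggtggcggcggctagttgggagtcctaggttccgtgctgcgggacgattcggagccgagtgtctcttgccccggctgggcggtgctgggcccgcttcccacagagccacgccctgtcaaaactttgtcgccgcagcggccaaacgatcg
Lef1: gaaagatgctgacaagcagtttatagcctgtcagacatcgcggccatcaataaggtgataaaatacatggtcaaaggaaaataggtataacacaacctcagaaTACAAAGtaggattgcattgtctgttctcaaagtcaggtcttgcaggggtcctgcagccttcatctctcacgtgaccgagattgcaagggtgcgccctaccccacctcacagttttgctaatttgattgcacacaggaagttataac
Wnt11: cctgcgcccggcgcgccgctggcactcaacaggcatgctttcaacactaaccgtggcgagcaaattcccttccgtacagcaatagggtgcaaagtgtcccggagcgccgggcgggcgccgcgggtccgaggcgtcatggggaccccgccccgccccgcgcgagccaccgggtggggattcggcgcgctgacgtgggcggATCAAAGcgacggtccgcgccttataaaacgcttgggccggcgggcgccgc
The Tcf7l2 window is chr19:55895071-55895320 (+ strand) and holds CTTTGTT from 14 bases before the start. The Tcf7l1 window is chr6:72789046-72789295 (- strand) and holds none of the 4 words. The Lef1 window is chr3:131156044-131156293 (+ strand) and holds CTTTGTA on the opposite strand from 147 bases before the start. The Wnt11 window, chr7:98834862-98835111 (+ strand), holds CTTTGAT on the opposite strand from 51 bases before the start. These matches describe letters in the windows and are not known binding sites, and the arrays do not tell which start was used.

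The core polarity genes were level. Vangl2, the transmembrane protein whose loss leaves the neural tube open in mice, read 5.50 in anterior and 5.52 in posterior tissue. Vangl1 read 5.42 and 5.40, and Celsr1, an atypical cadherin of polarised epithelia, read 5.09 and 5.15. All 3 differences are below 0.06 in size against local spreads of 0.19, 0.19 and 0.18 for Celsr1, Vangl1 and Vangl2.

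Over all roles, 17 of 40 detected WNT genes differed by more than their local spread as deposited, 13 toward anterior and 4 toward posterior tissue. That is 42.5% of them, against 40.3% of all detected genes. The 4 on the posterior side were all ligands (Wnt3a, Wnt5b, Wnt11 and Wnt9a). On the anterior side, 12 of the 13 were receptors or intracellular genes, the exception being Wnt2b. The split by side includes the trend with level, since 66.8% of all detected genes lay toward anterior tissue. After removal of the trend, Fzd6, Ror1, Nkd1, Tcf7l2, Tcf7l1 and Lef1 still exceeded their spreads on the anterior side. Wnt3a, Wnt5b, Wnt11, Wnt9a and Wnt6 then did so on the posterior side. Of the 28 detected genes other than ligands, 23 lay toward anterior tissue, 82.1% against 67.3% of the 8163 detected genes in their range of levels. After removal of the trend that count fell to 17 of 28, while the ligands kept to the posterior side, as the plot by role shows. Whether ligands and other members differ from each other was not tested, since genes are not replicates.

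**Figure D3:**
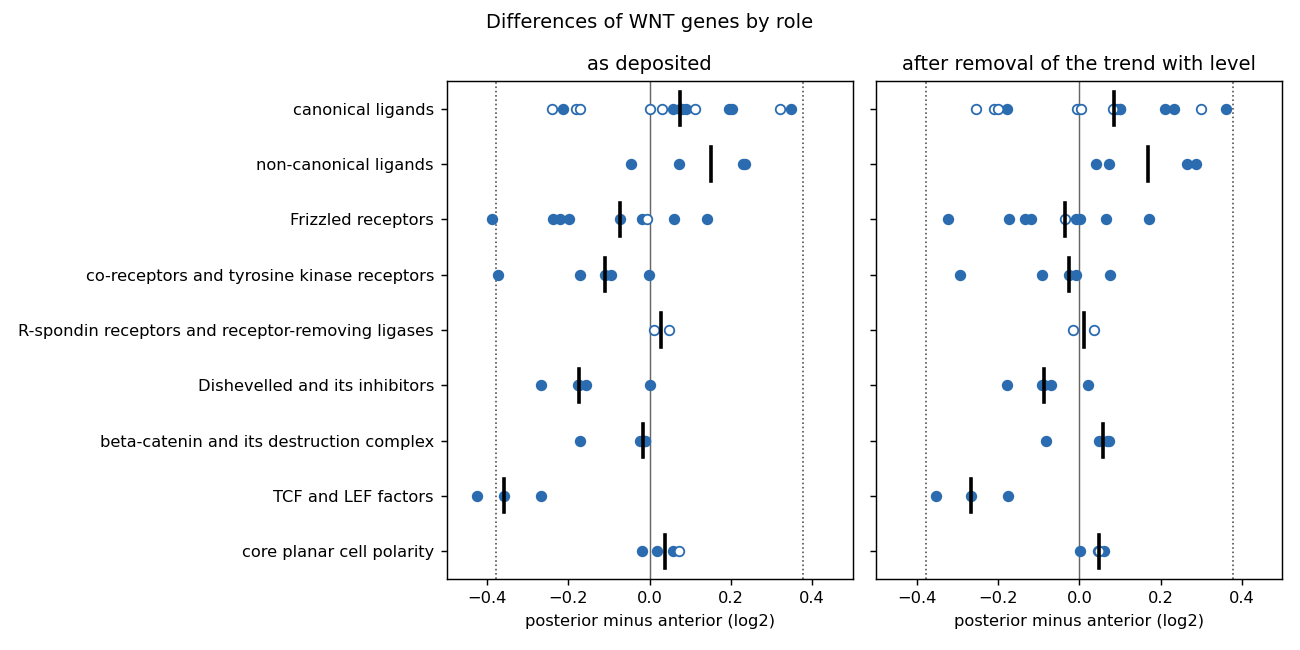
Difference of each WNT gene (posterior minus anterior, log2) by role, as deposited on the left and after removal of the trend with level on the right; filled points were detected, open points were not, black bars are medians and dotted lines mark 1.3-fold. The TCF and LEF factors lie furthest to the anterior side in both panels (medians -0.36 and -0.27), and both ligand roles have medians above 0 in both.

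The other genes of the pathway were described from 8 lists with 112 genes, of which 98 were measured. Past 1.3-fold toward anterior tissue lay 10 of the 98 (10.2%, against 4.8% of all genes) and toward posterior tissue 2 (2.04%, against 3.77%). The median over the 98 was -0.05, against -0.04 over all genes. The anterior count was 8 once the trend was removed, since Twist1 and Daam2 fell under 1.3-fold. By that measure 613 of all 14860 genes passed toward anterior tissue. Rspo4, among the 10, and Sostdc1, among the 2, were not detected. The lists were drawn up with earlier results of these arrays known, so that their counts are no independent evidence.

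The R-spondins, secreted proteins that raise WNT receptor levels at the cell surface, pointed in opposite directions. Rspo1 read 6.22 in anterior and 5.69 in posterior tissue, 1.44-fold higher in anterior tissue with a local spread of 0.18. Rspo3 read 6.89 and 7.35, 1.38-fold higher in posterior tissue with a local spread of 0.13. Rspo2, which is made by the apical ridge and is needed for normal limbs, read 6.13 and 5.94, 0.20 toward anterior tissue. Rspo1 and Rspo3 both differed by far more than their local spreads. Of 15 measured secreted antagonists, Wif1 and Frzb, which bind WNT ligands, were past 1.3-fold toward anterior tissue. Wif1 read 6.13 and 5.63 and Frzb 8.30 and 7.83. The Frizzled-related Sfrp1 and Sfrp2 and the Lrp inhibitor Dkk2 differed by 0.14, 0.03 and 0.02.

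Inside the cell, 0 of 12 kinases and ligases of the destruction complex and 0 of 14 nuclear co-factors passed 1.3-fold. The share over all genes was 8.57%, and lists this short cannot tell 0 from such a share. Gsk3b, the kinase that marks beta-catenin for destruction, read 9.06 in anterior and 9.09 in posterior tissue. Csnk1g2, a casein kinase, lay furthest in its list, 0.22 toward anterior tissue. Among the co-factors Tle5, a short Groucho-family protein, read 6.45 and 6.08, a difference of 0.37 toward anterior tissue that is just under the threshold. Of ligand processing, Wls, the carrier of WNT proteins to the cell surface, read 8.25 and 8.13, and Porcn, which attaches the lipid, 5.63 and 5.58. All 4 measured genes of that list stayed under 1.3-fold.

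Among 16 measured genes known as beta-catenin targets, 4 (25%, against 4.8% of all genes) were past 1.3-fold toward anterior tissue: Msx1, Msx2, Id2 and Twist1. Msx1 and Msx2, homeobox genes, and Id2 are induced by BMP signals as well. Msx1 read 7.15 in anterior and 6.31 in posterior tissue, 1.79-fold, and Msx2, whose posterior value lay under the floor, stood at least 1.45-fold higher on the anterior side. Id2 was 1.43-fold and Twist1, a mesenchymal regulator, 1.36-fold higher. Twist1 was 1.28-fold once the trend was removed, under the threshold, which leaves 3 of the 4. The remaining 12 targets stayed under 1.3-fold, 7 on the posterior and 5 on the anterior side. Cdx1, Sp8, Notum and Cd44 among them were not detected, so no direction is read from those genes. Sp5 read 5.33 and 5.40, Ccnd1 7.85 and 7.93, and Myc 6.53 and 6.60. Mycn, a relative of Myc, and Fgf8, the ridge growth factor, differed by 0.16 and 0.12 toward anterior tissue. In the non-canonical branches, Daam2, a formin that links Dishevelled to actin, was 1.34-fold higher in anterior tissue, and 1.27-fold after removal of the trend. It was the 1 of 20 polarity effectors past 1.3-fold (5%, near the 4.8% of all genes). Nfatc4, a calcium-regulated transcription factor, was 1.38-fold higher in anterior tissue, the 1 of 14 genes of the calcium branch past 1.3-fold (7.14%). The plot of the other pathway genes shows these against the rest of their lists.

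**Figure D4:**
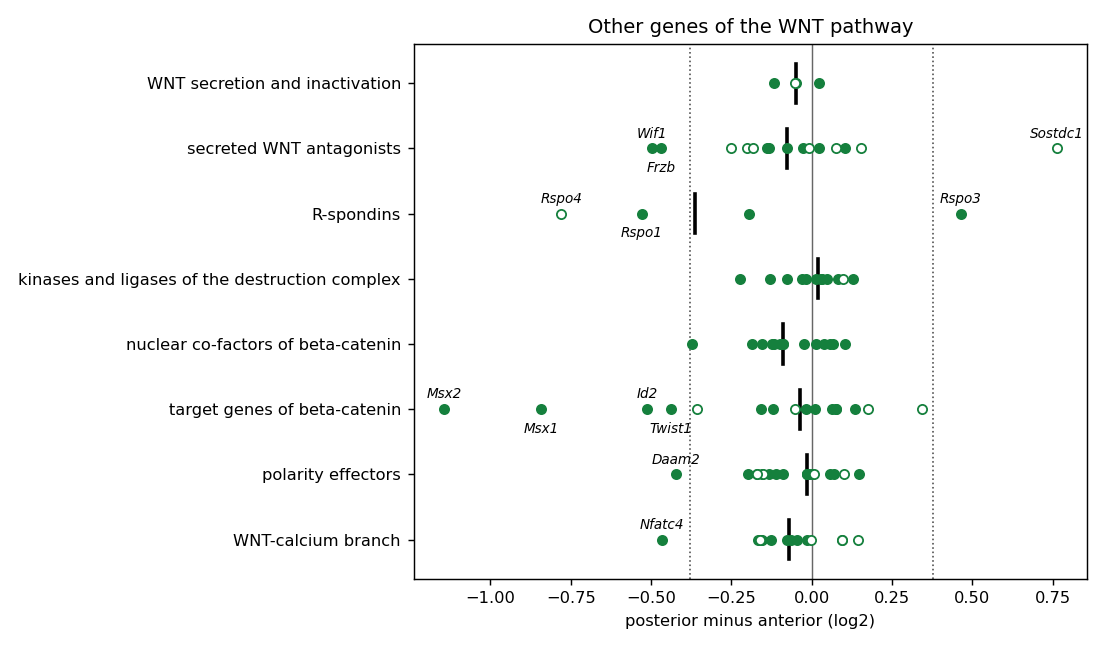
Difference of the 98 other measured genes of the pathway (posterior minus anterior, log2) by list; filled points were detected, open points were not, black bars are list medians, dotted lines mark 1.3-fold, and genes past it are named. Genes on more than 1 list appear in each, and 10 genes lie past the anterior line against 2 past the posterior line.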

How the data were processed

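The authors deposited log2 RMA values, which Affymetrix Expression Console made in a core gene-level analysis, per the labels. A software version is not stated there, and mm9 is the build in the submitters' processing notes. RMA equalises the distributions of the arrays, which removes an overall difference in brightness. The medians over 23332 probe sets were 5.44 (anterior) and 5.41 (posterior), and 0 other columns were present. The platform annotation gave 14996 probe sets exactly 1 symbol, averaged per symbol; each of the 51 members had 1 probe set, whose gene ID matched its symbol in RefSeq. With 1 array per group, log2 differences were described against local spread (1.4826 times the median absolute deviation) and the background share past 1.3-fold, and a lowess (fraction 0.3) removed the trend with level. All members were eligible to be named; other pathway genes were named where past 1.3-fold or furthest in their list, and a few more illustrate their list and were picked with values in view. The members and lists were chosen with earlier results of these data known. Spread and trend were tested on simulated data. Alternatives were detected genes alone, median-centred arrays, trend removal, the brightest probe set, an offset of 32, probe sets of several symbols, other folds and a stricter floor. Python 3.11.15, pandas 2.3.3 and statsmodels 0.14.6 were used. The number of arrays limits the precision.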

Additional observations from a re-analysis of the deposited data

How the results depend on the processing

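No paired analysis was possible because each group holds 1 array. The count of WNT genes past 1.3-fold toward anterior tissue, 2 as deposited, was 1 with median-centred arrays, 0 after removal of the trend and 1 with an offset of 32 (which shrinks differences of low values by construction); it was 6 at 1.2-fold and 0 at 1.5-fold. Toward posterior tissue it was 2 at 1.2-fold (Wnt3a, and Wnt8a, which was not detected) and 0 under every other alternative run. The share of all genes was not computed at the other folds, with centred arrays or with the offset. Those counts therefore have no background beside them. A floor at the 99th percentile of the background genes left 23 of 51 members detected, with Wnt5a and Wnt5b the only ligands among them. Of the other pathway genes, the posterior count of 2 became 1 among detected genes and 0 with the offset, and the anterior count of 10 became 4 with the offset. Median-centred arrays, removal of the trend and the offset are the alternatives that changed a member's own value. The remaining ones changed no member's value. Each member has 1 probe set, so the brightest one is the same, and no probe set of several symbols named a member. After removal of the trend the median of the co-receptors moved from -0.11 to -0.03 and that of beta-catenin and its destruction complex from -0.02 to 0.06; the ligand and TCF and LEF medians kept their sides. Signs differed from the deposited ones for 8 members under median-centred arrays and for 10 after removal of the trend. What the arrays cannot give is an error from replicates.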

Other observations

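Several WNT genes lie next to each other in the genome. In the RefSeq gene order, 4 pairs of members were adjacent protein-coding genes: Wnt3a and Wnt9a on chromosome 11, Wnt9b and Wnt3 on chromosome 11, Wnt6 and Wnt10a on chromosome 1, and Wnt10b and Wnt1 on chromosome 15. In 2 pairs both genes lay toward posterior tissue, Wnt3a with Wnt9a (0.35 and 0.20 on the log2 scale) and Wnt6 with Wnt10a (0.20 and 0.06). In the other pairs Wnt3 (0.08) and Wnt10b (0.07) lay toward posterior tissue, whereas Wnt9b and Wnt1, the neighbours on the anterior side, were not detected.

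Wnt7b and Dvl1 had exactly equal values in both arrays, as had 493 of the 14860 genes.

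Markers of other cell types were read beside the WNT genes, and the part of these cell types in the WNT values was not tested. Of all genes, 8.57% were past 1.3-fold in either direction. Lists this short cannot tell 1 or 2 genes from such a share. Of 10 apical ridge genes measured, Dlx5 alone was past 1.3-fold, toward anterior tissue at 1.31-fold; after removal of the trend with level Dlx5 was 1.24-fold and Fgf4 passed instead, toward posterior tissue at 1.302-fold. The list in posterior tissue summed to 99.5% of its anterior linear level. Of 10 macrophage genes 2 were past 1.3-fold, toward anterior tissue, Tyrobp at 1.82-fold and C1qa below detection, and the list summed to 80.8%; Csf1r, Ptprc and Adgre1, which define these cells, were not detected in either tissue. Of 8 muscle progenitor genes Myod1 alone was past 1.3-fold, and its bound against the floor is 1.03-fold toward posterior tissue (list sum 106%). Of 7 neural and Schwann cell genes, 2 were past 1.3-fold, Dcx toward anterior (1.79-fold) and Nefm toward posterior tissue (1.47-fold; list sum 84.1%). Of 6 red blood cell genes Klf1, not detected, was past 1.3-fold (list sum 101%). Of 7 trunk and body wall genes Foxc2, at least 1.39-fold, and Pax1, 1.32-fold, were higher in anterior tissue (list sum 93.8%), and Pax1 was 1.29-fold after removal of the trend. Among 10 limb mesenchyme genes, Prrx2, Lhx2, Msx1 and Twist1 were past 1.3-fold toward anterior and Meox2 toward posterior tissue (list sum 86.9%); Twist1 fell to 1.28-fold after removal of the trend.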
